A study of Mus musculus with 6 samples.

Results

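The alpha and beta crystallins are represented here by 8 genes, Cryaa and Cryab of the alpha family, Cryba1, Cryba2 and Cryba4 of the acidic beta family, and Crybb1, Crybb2 and Crybb3 of the basic beta family. They were found by symbol among 19938 genes with a probe set of their own, and each had exactly 1 probe set. RNA of whole corneas at postnatal day 3 was measured on 6 Affymetrix Mouse Gene 1.0 ST arrays. There were 3 arrays from K14-DN-Clim mice (DN-Clim), whose transgene puts a dominant-negative CLIM protein, a version of the cofactors that bind LIM-domain proteins, behind the keratin 14 promoter, and 3 from wild-type littermates (WT). Keratin 14 is made by basal cells of stratified epithelia, so the transgene is directed to the corneal epithelium and not to lens or stroma. The protocols state that non-corneal tissue was dissected away and that quantitative PCR was used to look for neighbouring tissues in the RNA. The labels do not say whether a sample was 1 animal or a pool, so the spread between samples may be partly technical.

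Crystallins are the soluble proteins that fill the lens and give it its refractive power. Alpha crystallins are small heat shock proteins, which hold unfolding proteins in solution, and beta crystallins belong with the gamma crystallins to a superfamily of folded structural proteins built from Greek key motifs. Lens fibre cells accumulate them in very large amounts, under regulators that include Pax6, Maf, Sox and Prox1 proteins. The cornea lies directly in front of the lens and stays clear with other abundant proteins, among them aldehyde dehydrogenases and transketolase, which have been called corneal crystallins.

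The genes lie at 6 places in the genome (RefSeq, GRCm38.p6). Cryaa is on chromosome 17 (31677931 to 31681730), Cryab on chromosome 9 (50745951 to 50756636), Cryba1 on chromosome 11 (77718614 to 77725293) and Cryba2 on chromosome 1 (74889934 to 74898842). The other 4 are on chromosome 5. There Cryba4 (112246492 to 112263625) and Crybb1 (112254563 to 112269585) lie on opposite strands and their annotated spans overlap. Crybb2 (113058258 to 113070117) and Crybb3 (113075839 to 113082236) follow each other on the minus strand, 5721 bases apart.

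RefSeq start regions were at hand for 7 of the 8 genes, all but Cryab. The 250 bases before an annotated start are shown for 5 of them. Cryaa, Cryba4, Crybb1 and Crybb3 were taken because they read far above WT on the same 2 arrays, and Crybb2, the neighbour of Crybb3, because it differed little. For Cryba4, Crybb1 and Crybb3, and for Cryba2, which is not shown, the window lies inside the gene span given above. Distances to the start therefore hold for the start used here only. Capitals mark TGCTGA, a half-site of the element bound by Maf proteins, and the TATA letters TATAAA and TATATA. The windows are chr17:31677681-31677930 on the plus strand, chr5:112252519-112252768 on the minus strand, chr5:112255570-112255819 on the plus strand, chr5:113081585-113081834 on the minus strand and chr5:113070118-113070367 on the minus strand, each written 5′ to 3′.
Cryaa: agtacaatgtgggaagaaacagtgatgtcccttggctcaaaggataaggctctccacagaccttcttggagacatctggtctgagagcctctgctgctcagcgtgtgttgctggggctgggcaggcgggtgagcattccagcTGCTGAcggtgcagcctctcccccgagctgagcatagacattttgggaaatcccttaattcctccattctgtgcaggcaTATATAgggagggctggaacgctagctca
Cryba4: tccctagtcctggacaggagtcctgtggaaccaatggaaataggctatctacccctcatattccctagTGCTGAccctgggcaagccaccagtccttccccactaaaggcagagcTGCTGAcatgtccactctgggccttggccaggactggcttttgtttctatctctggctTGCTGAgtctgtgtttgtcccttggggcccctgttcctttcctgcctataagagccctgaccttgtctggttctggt
Crybb1: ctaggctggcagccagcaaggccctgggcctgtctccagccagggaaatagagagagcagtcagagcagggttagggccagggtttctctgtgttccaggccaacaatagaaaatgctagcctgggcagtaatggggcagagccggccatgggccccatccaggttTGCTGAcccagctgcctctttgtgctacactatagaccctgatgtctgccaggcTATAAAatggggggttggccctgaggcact
Crybb3: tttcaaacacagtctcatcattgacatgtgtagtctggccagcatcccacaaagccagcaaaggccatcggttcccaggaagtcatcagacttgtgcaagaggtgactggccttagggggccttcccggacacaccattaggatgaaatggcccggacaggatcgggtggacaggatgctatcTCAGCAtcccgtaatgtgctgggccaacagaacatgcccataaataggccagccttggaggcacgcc
Crybb2: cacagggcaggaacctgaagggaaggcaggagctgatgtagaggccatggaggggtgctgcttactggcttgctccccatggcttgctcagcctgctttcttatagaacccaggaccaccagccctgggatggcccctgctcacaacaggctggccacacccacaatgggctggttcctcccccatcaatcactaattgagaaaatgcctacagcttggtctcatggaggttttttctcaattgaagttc

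TGCTGA was present on either strand in 6 of the 7 windows, against 16.1% of 32851 such windows over the genome. It stood 108 bases before the start of Cryaa, 84 before that of Crybb1, 57 before that of Cryba1, and 3 times in the Cryba4 window, at 182, 135 and 77 bases. In Cryba2 and Crybb3 it was read on the opposite strand, at 149 and 67 bases. The Crybb2 window held no such half-site. TATAAA was present in the windows of Cryba1 (23 bases before the start) and Crybb1 (30 bases), against 12.4% of all windows, and TATATA in that of Cryaa (29 bases), against 5.25%. ACAAT, the core letters bound by Sox proteins, was in the windows of Cryaa, Crybb1 and Crybb2, against 27.7%, and the heat shock letters GAANNTTC were in 0 of 7, against 6.69%. No marked motif overlapped another. These are matches of letters, chosen with the windows in view, and absence of a match says only that the letters are not in that window.

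Before the members' values, the arrays themselves need a description. The deposited values are intensities on a linear scale, 1 per probe set, taken below as log2(intensity + 16). A deviation is a log2 value minus the WT mean of the same probe set. Folds and multiples of the WT mean are these deviations taken off the log2 scale. Median intensities ran from 231 to 281 on the DN-Clim arrays and from 261 to 271 on the WT arrays, and the number of arrays limits the precision. Of the markers that define cornea, Krt12, the keratin of corneal epithelium, read 2277, 2085 and 3953 on DN-Clim replicates 1, 2 and 3, against 2359, 2992 and 2830 on WT replicates 1, 2 and 3. Kera, the keratocyte proteoglycan keratocan, read 4451, 3979 and 6857 in DN-Clim, against 6031, 7537 and 8698 in WT. The 3 DN-Clim arrays differ among themselves in what follows, so arrays are given singly, always in the order of replicates 1, 2 and 3. The members were chosen with the DN-Clim contrast known. Their values and differences in that contrast are therefore a description and carry no test.

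Cryaa encodes alphaA-crystallin, the alpha subunit made mainly in lens. Its intensity was 19508, 15964 and 448 in DN-Clim, against 447, 537 and 754 in WT. The first 2 DN-Clim arrays stood 33.6-fold and 27.5-fold above the WT mean, while replicate 3 lay just above the lowest WT array, so the groups overlap. In RNA of a whole tissue, fewer cells of a type and less RNA per cell cannot be told apart. Cryab encodes alphaB-crystallin, which is made in lens and also in muscle, heart, brain and other tissues. It read 4796, 4651 and 2360 in DN-Clim, against 1894, 2204 and 1770 in WT. All 3 DN-Clim arrays were above all 3 WT arrays, but replicate 3 by only 0.10 on the log2 scale, and the folds over the WT mean were 2.45, 2.38 and 1.21.

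The alpha pair thus differed in scale. On DN-Clim replicate 1 the deviation was 5.07 for Cryaa and 1.29 for Cryab, and on replicate 2 it was 4.78 and 1.25. Among all 19938 genes the Cryaa deviation ranked 5 on both arrays, and that of Cryab ranked 94 on replicate 1 and 262 on replicate 2.

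The acidic beta crystallins had the same pair of high arrays. Cryba2, a betaA subunit, read 9811, 8207 and 208 in DN-Clim, against 204, 212 and 253 in WT. Its deviations were 5.37, 5.11 and -0.09, and the WT arrays were within 0.29 of each other on the log2 scale, so that replicate 3 lay inside a narrow WT range. On DN-Clim replicate 3 and on every WT array, however, Cryba2 read under the median intensity of the array. That likeness therefore does not show detection. Cryba4, another betaA subunit, read 11494, 10903 and 134 in DN-Clim, against 386, 296 and 519 in WT. Here replicate 3 was below all 3 WT arrays, at 0.37 times the WT mean.

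Cryba1 encodes betaA3/A1-crystallin, made from one messenger with alternative starts of translation and known also from astrocytes and pigment epithelium of the retina. Its intensity was 9622, 11267 and 129 in DN-Clim, against 552, 522 and 1671 in WT. Its profile stood apart from that of Cryba2. Replicate 3 of DN-Clim read 0.18 times the WT mean, a deviation of -2.47 that ranked 19934 of 19938. In plain intensity, WT replicate 3 was 3.11 times the mean of the other WT arrays. Cryba4 went the same way to a lesser degree. Its deviation on DN-Clim replicate 3 was -1.44, which ranked 19871, and its intensity on WT replicate 3 was 1.52 times the mean of the other WT arrays.

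Among the basic beta crystallins, Crybb1 encodes betaB1, a fibre cell subunit. It read 17264, 17495 and 397 in DN-Clim, against 280, 342 and 699 in WT. The folds over the WT mean on DN-Clim replicates 1 and 2 were 40.8 and 41.4, and replicate 3 lay between WT arrays at 0.98. Crybb3, for betaB3, read 19325, 16161 and 512 in DN-Clim, against 478, 462 and 652 in WT. Its deviations were 5.16, 4.90 and -0.03, again with replicate 3 inside the WT range.

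Crybb2 encodes betaB2, the major basic beta crystallin of the mature lens, whose messenger accumulates in rodents mostly after birth. It read 632, 598 and 533 in DN-Clim, against 410, 438 and 446 in WT. All DN-Clim arrays were above all WT arrays, by 0.49, 0.41 and 0.25 over the highest of them on the log2 scale. The folds over the WT mean were 1.45, 1.37 and 1.23, so Crybb2 had the smallest deviation of the 8 genes on DN-Clim replicates 1 and 2. Crybb3, its neighbour, was at 35.8-fold and 29.9-fold on the same arrays.

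**Figure D1:**
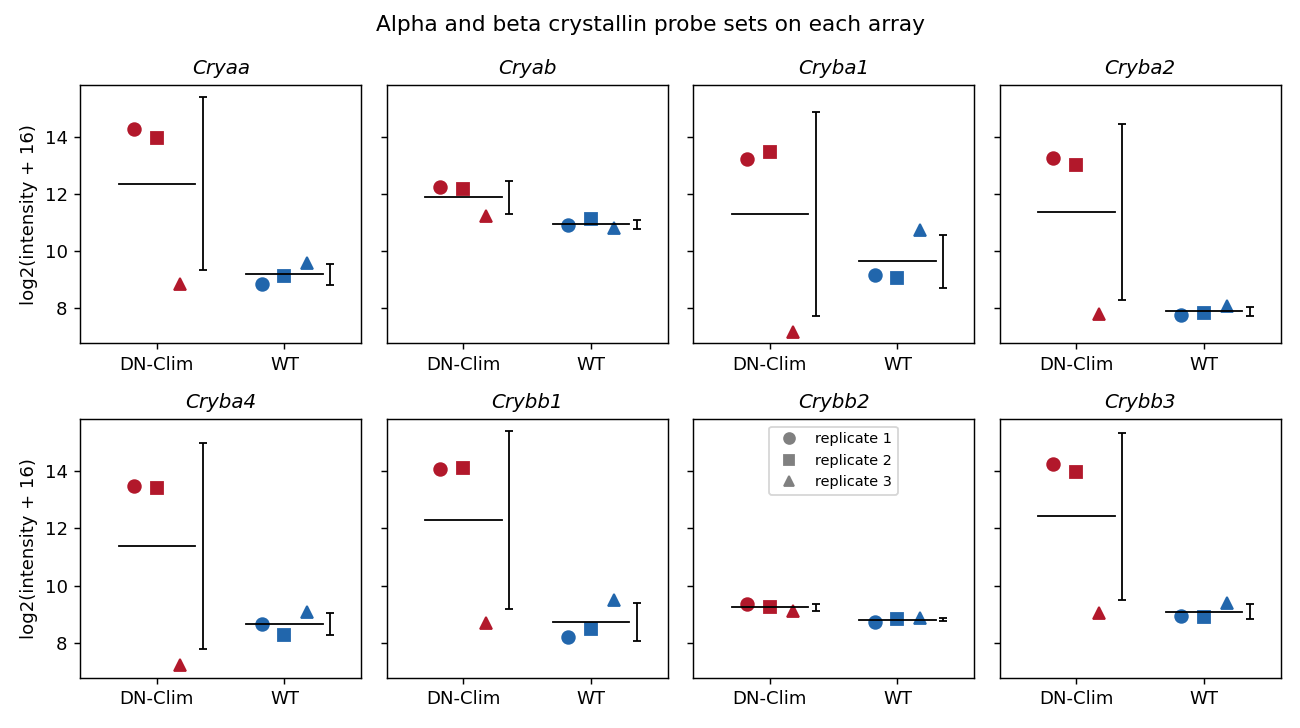
Each panel plots log2(intensity + 16) of 1 crystallin on the 3 DN-Clim arrays (red, left) and the 3 WT arrays (blue, right); lines are group means, bars beside them are 1 SD, and symbols give the replicate number. In 6 panels DN-Clim replicates 1 and 2 stand far above every other array, Cryab shows a smaller step, and Crybb2 a slight one.

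Over the 8 genes, all were above the highest WT array on DN-Clim replicate 1, as were 23.1% of the 23410 probe sets tested, and all were above it on replicate 2, as were 27.2%. Below the lowest WT array there were 0 members on replicate 1 (38.8% of probe sets) and 0 on replicate 2 (50.0%). A distance of over 2 on the log2 scale above the highest WT array was reached by 6 members on replicate 1, against 0.0897% of probe sets, and by the same 6 on replicate 2, against 0.141%. These were all members but Cryab and Crybb2. The nearest inside that distance was Cryba1, at 2.51 on replicate 1 and 2.74 on replicate 2, and the nearest outside was Cryab, at 1.12 and 1.07. On replicate 3 the distance was reached by 0 members (0.00427% of probe sets). There 2 members were above all WT arrays (39.8% of probe sets), 4 were between WT arrays, and Cryba1 and Cryba4 were below all of them (28.2%). The contrast entered the choice of the genes, and nothing is read from these shares.

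The median deviation over the 8 genes was 4.95, 4.76 and -0.06 in DN-Clim, against -0.12, -0.12 and 0.35 in WT. Over all genes it was -0.06, -0.17 and 0.08 in DN-Clim, and between -0.02 and 0.02 in WT. The 2 high arrays were close to each other: the log2 value on replicate 1 minus that on replicate 2 ran from -0.23 for Cryba1 to 0.29 for Cryaa, and its median size was 0.15 over the members and 0.26 over all genes. Several members were near the top of the intensity scale on these arrays, where the highest readings were 22209 and 27818, and compression of folds at that end was not tested. Within WT, replicate 3 was the highest array for 7 of the 8 genes, all but Cryab. Its excess in intensity over the mean of the other WT arrays was 3.11-fold for Cryba1 and 2.25-fold for Crybb1. It was 1.53-fold for Cryaa, 1.52-fold for Cryba4, 1.39-fold for Crybb3, 1.22-fold for Cryba2 and 1.05-fold for Crybb2.

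With all 6 arrays, the DN-Clim minus WT difference was 3.17 (SE 1.17) for Cryaa, 3.56 (SE 1.22) for Crybb1, 3.46 (SE 1.18) for Cryba2 and 3.34 (SE 1.13) for Crybb3. It was 2.71 (SE 1.38) for Cryba4 and 1.65 (SE 1.41) for Cryba1. The SEs given here are limma's moderated errors, which draw the variance of each probe set toward a common value. They are therefore not the spread of these arrays alone. With another variance model, the trended robust prior, the SE of Cryaa was 1.69. The errors of these genes are large because replicate 3 did not share the high values. The Cryaa mean was 12.36 ± 3.03 in DN-Clim and 9.18 ± 0.37 in WT (SD, n = 3 each). Cryab differed by 0.94 (SE 0.28) and Crybb2 by 0.43 (SE 0.17), with smaller errors, since all their arrays were closer together. In limma's fit over 23410 probe sets, 0 members passed an adjusted p of 0.05, where 0.0128% of probe sets did. Those that passed were all lower in DN-Clim, and 0 probe sets passed as higher. The members with an unadjusted p under 0.05 that were higher numbered 6, where 1.45% of probe sets were so. That last count was 1 without DN-Clim replicate 1, 2 without DN-Clim replicate 2, 8 without DN-Clim replicate 3, and 4 or 5 when a WT array was left out. Cryab and Crybb2 were the 2 whose groups did not overlap (3.20% of probe sets had all DN-Clim above all WT arrays). Without DN-Clim replicate 3, 7 members lay past the threshold as higher, all but Crybb2, where 0.547% of probe sets did. That count follows from leaving out the array that lacks the high values, and it is no test. Without DN-Clim replicates 1 and 2, 0 members passed and 2 of the 8 were higher in the remaining DN-Clim array.

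**Figure D2:**
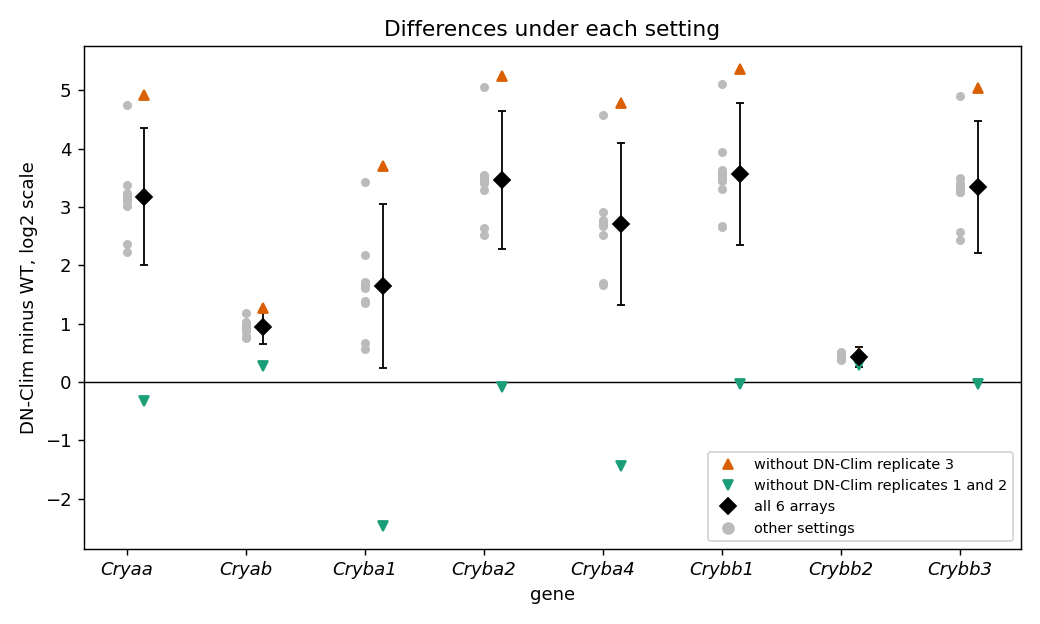
DN-Clim minus WT differences on the log2 scale are shown for each crystallin with all 6 arrays (black diamonds, bars 1 SE), without DN-Clim replicate 3, without DN-Clim replicates 1 and 2, and in the other settings (grey). Without replicates 1 and 2 the 6 large differences lie below 0, at -2.47 for Cryba1, and Crybb2 stays between 0.30 and 0.51 in all the settings.

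The genes around the crystallins did not share their step. For each member the nearest gene with a probe set on either side was taken by midpoint, which gave 12 genes that are not crystallins of these families. Of these, 4 were above all WT arrays on DN-Clim replicate 1 and 1 on replicate 2, where 23.1% and 27.2% of probe sets were. They exceeded the highest WT array by at most 0.15 and 0.34 on the log2 scale. Deviations ran from -1.37 to 0.36 on replicate 1 and from -1.06 to 0.39 on replicate 2. Hspb2, a small heat shock gene beside Cryab, had deviations of -0.00, -0.23 and 0.33 in DN-Clim, against -0.05, 0.36 and -0.30 in WT. Tpst2, a tyrosine sulfotransferase gene 7096 bases from Crybb1, had deviations of -0.03, -0.00 and -0.02 in DN-Clim, against 0.06, 0.05 and -0.11 in WT.

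**Figure D3:**
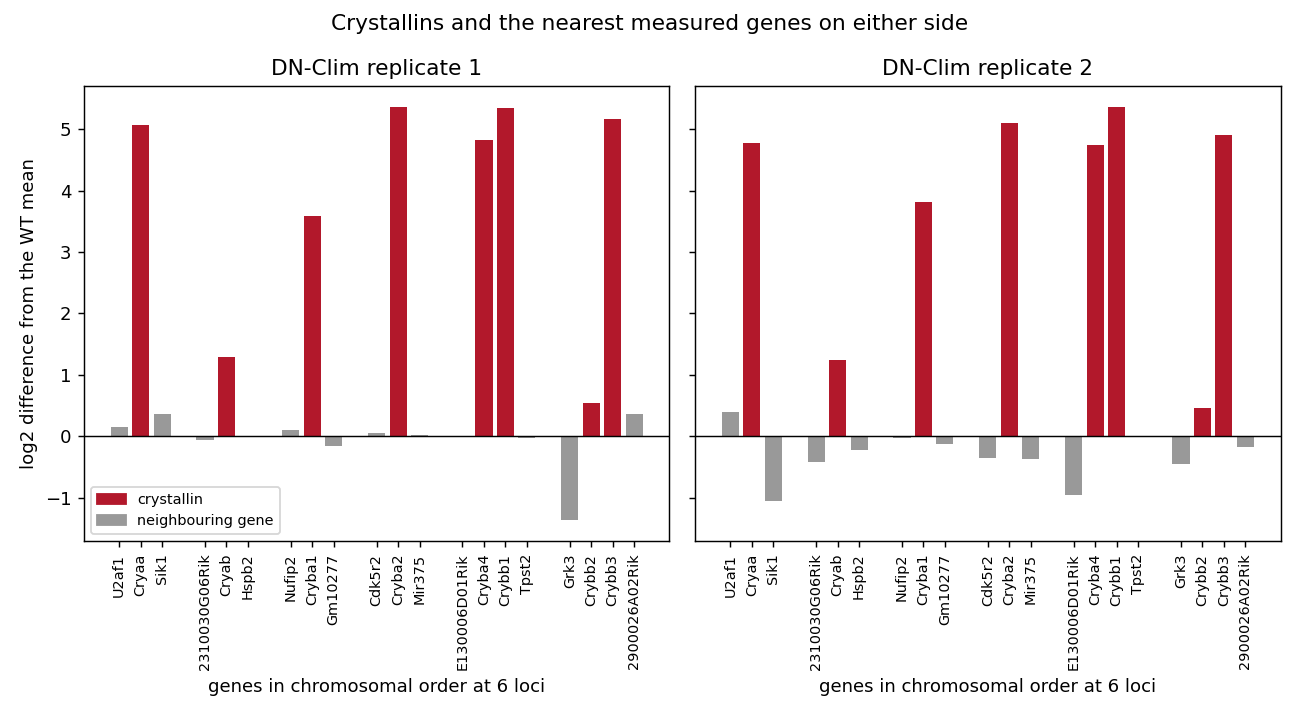
Bars give the log2 difference from the WT mean on DN-Clim replicates 1 and 2 for the 8 crystallins (red) and the nearest measured genes on either side (grey), grouped by locus. Crystallins other than Cryab and Crybb2 exceed 3.5 on both arrays, while the grey bars stay between -1.37 and 0.39.

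Likeness to the mean profile of the 8 genes was measured as the root mean square difference of deviations over the 6 arrays, in log2 units. Of the 10 other genes most alike, 6 were gamma crystallins: Crygn (0.33), Crygc (0.69), Crygf (0.74), Cryga (0.86), Crygb (0.90) and Crygs (0.97). Others were Bfsp1, for the beaded filament protein filensin of lens fibres (1.02), Pou3f2, a POU-domain transcription factor (0.86), Pgam2, the muscle phosphoglycerate mutase (0.93), and the Y-linked demethylase gene Kdm5d (1.01). Among the members themselves, Crybb3 and Cryba2 were each other's most alike gene, at 0.14, and Crybb3 was the gene most like Cryaa, at 0.17. Cryba4 was most like Crygc (0.31) and Cryba1 most like Crygd (0.35), both gamma crystallins. Cryab and Crybb2 were unlike the mean profile, at 1.54 and 1.97, with ranks of 126 and 1355 over all genes, and the genes most like them were no crystallins (Riiad1 for Cryab, at 0.18, and Eftud2 for Crybb2, at 0.01).

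The gamma crystallins, related structural proteins of the lens, overlap the beta crystallins in pattern but not fully. All 7 measured were above all WT arrays on DN-Clim replicates 1 and 2 (23.1% and 27.2% of probe sets), with list medians of 4.17 and 4.49. On replicate 3, 6 of the 7 were below all WT arrays (28.2% of probe sets), and the median was -1.81. In limma's fit 0 of the 7 passed in either direction, and the differences ran from 1.80 for Crygd to 3.28 for Crygs. Crygs read 15883, 17576 and 162 in DN-Clim, against 316, 329 and 462 in WT. On replicate 3, Cryba1 and Cryba4 were thus low together with most gamma crystallins, whereas Cryaa, Cryba2, Crybb1 and Crybb3 read as in WT. Cryba2 was under the median intensity of the array there and on every WT array.

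Of 12 genes for lens fibre proteins, 10 were above all WT arrays on DN-Clim replicate 1, 10 on replicate 2 and 7 on replicate 3. The shares of all probe sets there were 23.1%, 27.2% and 39.8%. The median deviations of the list were 0.82, 0.66 and 0.29. Of the defining lens markers, Bfsp1 read 2412, 2421 and 519 in DN-Clim, against 637, 485 and 396 in WT. Lim2, a fibre membrane protein, read 300, 1077 and 214 in DN-Clim, against 129, 148 and 137 in WT, and was thus higher on all 3 DN-Clim arrays. Mip, the fibre water channel, read 201, 329 and 165 in DN-Clim, against 232, 191 and 246 in WT, with only replicate 2 above the WT range. The summed intensity of the list was 6364, 7213 and 3193 in DN-Clim, against 2715, 2867 and 2735 in WT. No measured marker of it was at 0, but this does not show detection. On every WT array, Lim2 and Mip read under the median intensity of the array. In limma's fit 0 of the 12 genes passed in either direction, with differences from -0.07 for Lgsn to 1.52 for Bfsp1.

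Of 10 transcription regulators of the lens, 0 passed in either direction and the median difference was 0.11. The differences ran from -0.18 (SE 0.19) for Mafg, for a small Maf protein, to 1.93 (SE 0.90) for Sox2, which was far above the other arrays on DN-Clim replicate 1 only. Pax6, which acts in cornea and lens, read 3786, 3749 and 3357 in DN-Clim, against 3062, 3091 and 3357 in WT. Above all WT arrays there were 4 of the 10 on DN-Clim replicate 1 and 3 on replicate 2, where 23.1% and 27.2% of probe sets were. Below all WT arrays there were 2 and 5 of the 10, where 38.8% and 50.0% of probe sets were. Prox1, a homeodomain factor needed for fibre elongation, read 940, 1248 and 237 in DN-Clim, against 292, 281 and 476 in WT. It was chosen after its values were seen, and it stood above all WT arrays on DN-Clim replicates 1 and 2, unlike most regulators of the list. Maf, for the large Maf protein of lens fibres, read 388, 331 and 438 in DN-Clim, against 332, 417 and 367 in WT, which overlap.

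Next come other small heat shock genes, inducible heat shock genes, and other genes with the crystallin name or beta-gamma motifs. These lists held no gene over 2 log2 units above the highest WT array on any DN-Clim array. Still, Cryz and Hsph1 had deviations close to those of Crybb2 on DN-Clim replicates 1 and 2. Of 7 other small heat shock genes, 0 passed, and the differences ran from -0.61 for Hspb8 to 0.19 for Hspb6. Of 6 heat shock genes inducible by stress or their partners, 0 passed, with differences from -0.50 for Bag3 to 0.37 for Hsph1. Of 7 genes that carry the crystallin name from other roles or hold beta-gamma motifs, 0 passed, from -0.55 for Crybg3 to 0.42 for Cryz, a quinone reductase named as a crystallin in guinea pig. Cryz read 601, 671 and 360 in DN-Clim, against 379, 378 and 407 in WT, with deviations of 0.61 and 0.77 on DN-Clim replicates 1 and 2, and those of Hsph1 were 0.45 and 0.65. Those of Crybb2 were 0.54 and 0.46. For comparison, the median difference was 2.94 over the 8 members and -0.03 over all genes.

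**Figure D4:**
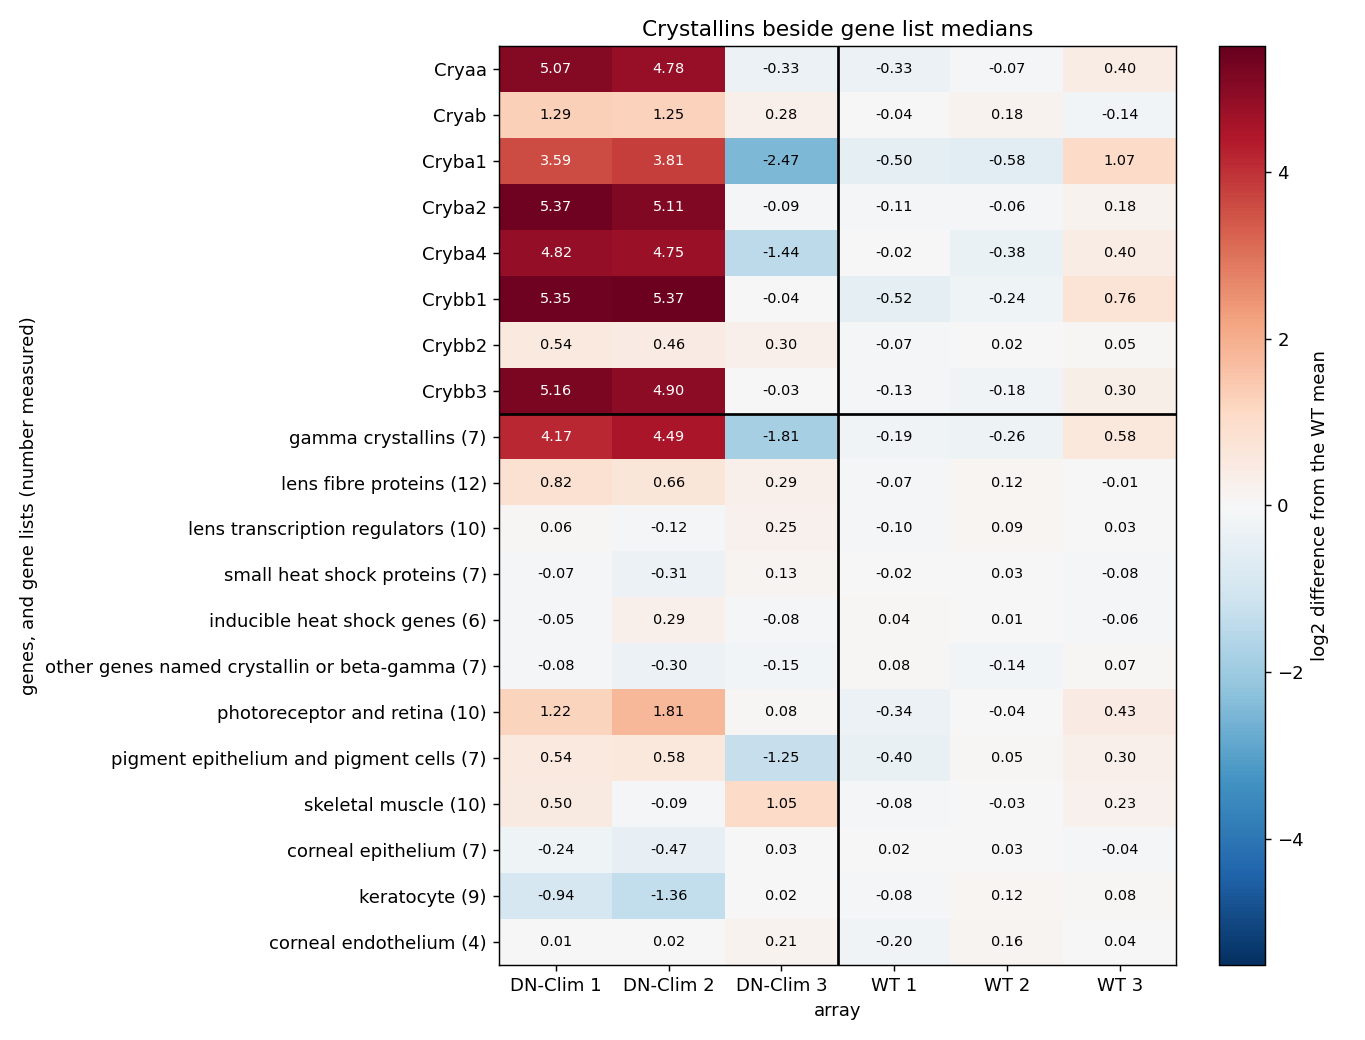
Cells give the log2 difference from the WT mean on each array, DN-Clim left and WT right, for the 8 crystallins (above the line) and as medians of gene lists (below it, number of genes measured in brackets). The gamma crystallins are high on DN-Clim replicates 1 and 2, the retina list has smaller positive medians there, and the keratocyte list has negative ones.

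Markers of other tissues are given beside the crystallins, array by array. Of 10 photoreceptor and retina genes, 9 were above all WT arrays on DN-Clim replicate 1, 9 on replicate 2 and 2 on replicate 3, where the shares of all probe sets were those given above. Their summed intensity was 8685, 12518 and 3176 in DN-Clim, against 2353, 3155 and 4278 in WT. None was at 0, but this does not show detection, since Gnat1 was under the median intensity of every array. Sag, retinal arrestin, read 2062, 2536 and 583 in DN-Clim, against 372, 646 and 756 in WT. The list median was also highest in WT on replicate 3, at 0.43, as were most crystallins there. The pigment cell list summed to 10271, 9380 and 2441 in DN-Clim, against 5143, 6347 and 8158 in WT. Of its 7 genes, 5 were above all WT arrays on DN-Clim replicate 1 and 5 on replicate 2, where 23.1% and 27.2% of probe sets were. The list was low on DN-Clim replicate 3, where 5 of its 7 genes were below all WT arrays (28.2% of probe sets), as were Cryba1 and Cryba4. The 9 keratocyte genes summed to 21142, 17451 and 37725 in DN-Clim, against 35701, 41235 and 37285 in WT. Of them, 7 were below all WT arrays on DN-Clim replicate 1 and 7 on replicate 2, where 38.8% and 50.0% of probe sets were. Of the retina list 0 genes passed in limma's fit, with differences from 0.11 for Gnat1, a rod transducin subunit, to 1.36 for Pde6b, a rod phosphodiesterase subunit. Of the pigment list 0 passed, from -0.48 for Dct to 0.11 for Rgr. Of the keratocyte list 0 passed, from -1.13 for the sulfotransferase Chst5 to 1.15 for the dehydrogenase Aldh1a1. The 7 corneal epithelial genes summed to 21238, 19156 and 26889 in DN-Clim, against 28243, 26560 and 25795 in WT, and 6 of them were below all WT arrays on DN-Clim replicate 1, 7 on replicate 2 and 2 on replicate 3, where 38.8%, 50.0% and 28.2% of probe sets were. Their differences ran from -1.09 for Aldh3a1 to -0.03 for Krt12, and those of 4 genes of corneal endothelium from -0.27 for Col8a2 to 0.68 for Cdh2, with 0 past the threshold in both. The part of lens, retina or pigment tissue in the crystallin values was not tested.

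For Cryab, which muscle also makes, the skeletal muscle list is given beside it. Its 10 genes summed to 7044, 3496 and 11461 in DN-Clim, against 3248, 2738 and 4528 in WT, and 8 of them were above all WT arrays on DN-Clim replicate 1, 2 on replicate 2 and 9 on replicate 3, where 23.1%, 27.2% and 39.8% of probe sets were. Of these 10, 0 passed, with differences from -0.06 for Ckm to 1.97 for Pgam2. Mylpf, a fast-muscle light chain, read 479, 340 and 894 in DN-Clim, against 202, 65 and 262 in WT. Most of the muscle list was thus above all WT arrays on DN-Clim replicate 1, which also had high crystallins, and on replicate 3, which had not. The part of muscle in its values was not tested. Of the 3 Y-linked genes measured, 0 passed, and all 3 were above all WT arrays on DN-Clim replicates 1 and 2, Uty by little on replicate 1 (23 in DN-Clim, against 15 to 19 in WT). Eif2s3y read 127.4, 689.6 and 5.2 in DN-Clim, against 51.5, 3.8 and 57.4 in WT. Kdm5d read 128, 344 and 19 in DN-Clim, against 35, 20 and 42 in WT, while Xist read 4395, 6113 and 5420 in DN-Clim, against 5204, 6173 and 5511 in WT. DN-Clim replicate 2 thus had high Xist together with the highest readings of the 3 Y-linked genes. Whether it holds RNA of more than 1 animal was not tested.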

How the data were processed

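The authors deposited 1 intensity per probe set and array on a linear scale, for 35557 probe sets. Per the submitters' processing notes, Affymetrix Expression Console 1.1 and the PLIER model produced them, and the labels' protocols give amplification with a NuGEN kit. For background correction and normalization between arrays, the method is not given in the sources used here.

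Values were taken as log2(intensity + 16), which understates folds of dim genes. Array medians differed by 0.27 on that scale, below the 0.5 set for centring, so none was done. The array annotation gave 23410 probe sets with a gene, of which 21789 had 1 symbol and 1621 several, and 12147 had none and were left out. Of the measured genes, the probe set with the highest mean over the 6 arrays was used. limma 3.58.1 in R 4.3.3 (lmFit, eBayes, Benjamini-Hochberg, threshold 0.05) was run on the 23410 probe sets, DN-Clim minus WT, after a test on simulated data. Members, gene lists and rules were chosen with earlier results of these data known. The 8 members were always named. Other genes named were the 10 most alike, the highest and lowest difference in a list, tissue checks and neighbouring genes; Prox1, Maf, Mip, Sag, Pax6 and Mylpf were added after their values were seen. Same-numbered arrays of the groups deviated together with correlations of 0.02, -0.21 and -0.44, and the arrays were not treated as pairs. With 3 arrays per group, each centred on its group mean, these correlations cannot show whether the samples were matched. Alternatives were other offsets, normalizations, filters, variance models, array weights, a replicate block and fits without single arrays. Promoter windows are from RefSeq, GRCm38.p6.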

Additional observations from a re-analysis of the deposited data

How the results depend on the processing

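The filters, the trended robust prior and the replicate block leave a member's difference unchanged by construction. The spread between replicates includes the gap between DN-Clim replicate 3 and the other DN-Clim arrays, so large shifts can lie within it. Cryba1 went from 1.65 to 3.70 without DN-Clim replicate 3 and still lay within it. The counts that follow are therefore no measure of stability. Of 128 comparisons of a member's difference over 16 alternatives, 120 moved by less than that spread, 2 moved by more and 6 turned direction. The 6 were without DN-Clim replicates 1 and 2, where 1 DN-Clim array is assumed to vary like WT: Cryaa differed by -0.33, Cryba1 by -2.47, Cryba2 by -0.0862, Cryba4 by -1.44, Crybb1 by -0.0363 and Crybb3 by -0.0349, and the median over the members was -0.0613. In that fit 79 probe sets passed. The count of members past the threshold was 0 with all 6 arrays and 8 with array weights, where 2059 probe sets passed. There DN-Clim replicate 3 had a weight of 0.20, the lowest. DN-Clim replicates 1 and 2 had weights of 3.055 and 0.38, so replicate 1 carried most of the weight of its group. Leaving out 1 array gave 1 to 8 members with an unadjusted p under 0.05, against 6 with all arrays, 2 with the trended robust prior and 8 with array weights. Leaving out 1 array also gave 0 to 7 members and 0 to 483 probe sets past the threshold, the upper values without DN-Clim replicate 3 and 0 for both counts without any other array. The median difference over the members ran from 1.94 without DN-Clim replicate 1 to 4.85 without DN-Clim replicate 3. The count of probe sets, 3 with all arrays, was 1 with quantile normalization, 0 over all probe sets of the table and 5 with a trended robust prior. With the replicate block 9 probe sets and 0 members passed and the median was 2.94. The cause of these changes was not tested. An alternative that averages several probe sets of a gene gave no value of its own, since each member has 1.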

Other observations

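On DN-Clim replicate 1, the 20 of 19938 genes farthest above the highest WT array held 6 of the alpha and beta crystallins. They also held the gamma crystallins Crygs, Crygn, Crygc, Cryga, Crygb, Crygd and Crygf, and the lens fibre gene Bfsp1. The DN-Clim contrast entered the choice of the members, so their count is a description only. Sox2, a transcription factor of early eye and lens, ranked 7 among these 20 genes. Sox2 read 5927 on that array, and 366 and 347 on DN-Clim replicates 2 and 3, against 199, 202 and 303 in WT. The crystallins were high on both of the first 2 DN-Clim arrays, Sox2 to this degree on 1.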
